A study of Mus musculus with 4 samples.

Results

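LβT2 (written LbT2b in the sample titles and LbT2 in the cell line field), a mouse line in long use, models the gonadotrope of the pituitary, the source of LH and FSH. The genes described here belong to the other hormone-producing cells of the anterior and intermediate pituitary: the hormone genes Prl, Gh, Tshb and Pomc, and the lineage factor genes Pou1f1 and Tbx19. These 6 genes were chosen by name, out of 20768 protein-coding genes that had a start site in the annotation used. Accessible chromatin was mapped by ATAC-seq, which reads out where a transposase could cut the DNA, in cells kept in serum-free medium overnight and then given vehicle or 1 nM activin A for 6 h. There were 4 libraries, 2 of vehicle and 2 of activin, each from 50000 cells. Activin A is the TGF-β family ligand that stimulates Fshb transcription in gonadotropes. The labels do not say whether libraries of a group came from separate cultures. Every p-value below therefore concerns these libraries only, and the differences within a group may be technical.

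A peak was attributed to a gene in either of 2 ways: the authors' annotation named the gene, or the peak centre lay within 50 kb of one of its start sites. The 4 peak lists held 417506 peaks, of which 58 were annotated to one of the 6 genes and 150 lay within 50 kb of their start sites. None of the 58 annotated peaks lay outside the 50 kb windows, so the 150 peaks contain them all.

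Prolactin, growth hormone and the β subunit of thyrotropin are made by lactotropes, somatotropes and thyrotropes. These cell types depend on POU1F1, a POU-homeodomain factor that binds the promoters of Prl, Gh and Tshb. Proopiomelanocortin is the precursor of ACTH in corticotropes and of α-MSH in melanotropes, and its transcription in both depends on TBX19, a T-box factor. Gonadotropes are set apart from these lineages by NR5A1. GATA2 and FOXL2 also act in gonadotropes, and thyrotropes share with them the common glycoprotein hormone α subunit, encoded by Cga. Start sites of expressed genes usually lie in accessible chromatin, so an ATAC-seq peak at a start site marks a promoter that the transposase could reach. A peak by itself does not measure transcription. Reads outside called peaks were not used, so the lack of a called peak does not show that a site was closed.

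The Pomc promoter is shown first because, of the 5 genes with a window in the RefSeq promoter table, it alone had a called peak over it, in both vehicle libraries. The 250 bases before its start site are chr12:3954695-3954944 on the plus strand (RefSeq, GRCm38.p6), printed 5′ to 3′. Capitals mark the 91 bases that lay inside the peak of vehicle library 2.
Pomc: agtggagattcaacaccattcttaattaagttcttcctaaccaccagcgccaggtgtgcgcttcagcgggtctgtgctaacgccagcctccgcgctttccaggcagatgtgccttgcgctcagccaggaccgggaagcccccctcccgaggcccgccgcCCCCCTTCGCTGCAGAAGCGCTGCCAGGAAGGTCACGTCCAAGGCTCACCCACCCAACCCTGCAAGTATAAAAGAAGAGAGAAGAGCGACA
The capitals hold the TATA box (TATAAA, first base at −25 from the start site) and AAGGTCA (at −63), the letters of an NR5A1 site. A CGCCCCC, the core of an EGR site, starts at −94, and E boxes (CANNTG) start at −200 and −147. Among 21263 RefSeq promoter windows of 300 bases (250 before the start site and 50 after), TATAAA was found on either strand in 12.6%, AAGGTCA in 4.08%, CGCCCCC in 21.5% and CANNTG in 69.0%. These matches describe the letters of the window and are not evidence of binding.

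The promoters of Prl, Tshb and Pou1f1 are shown because no peak was called over them in any library. Capitals mark matches to TATAAA and to ATGNATA, a core of the POU1F1 site, on either strand; where matches overlap, the capitals run together. The Prl sequence is chr13:27057320-27057569 on the plus strand, the Tshb sequence is chr3:102782715-102782964 on the minus strand, and the Pou1f1 sequence, before the first of its RefSeq start sites, is chr16:65520262-65520511 on the plus strand.
Prl: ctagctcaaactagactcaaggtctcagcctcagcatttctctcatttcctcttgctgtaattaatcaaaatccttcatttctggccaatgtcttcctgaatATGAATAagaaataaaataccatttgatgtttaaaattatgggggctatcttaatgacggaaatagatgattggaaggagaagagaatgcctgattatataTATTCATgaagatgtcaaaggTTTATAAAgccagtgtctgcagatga
Tshb: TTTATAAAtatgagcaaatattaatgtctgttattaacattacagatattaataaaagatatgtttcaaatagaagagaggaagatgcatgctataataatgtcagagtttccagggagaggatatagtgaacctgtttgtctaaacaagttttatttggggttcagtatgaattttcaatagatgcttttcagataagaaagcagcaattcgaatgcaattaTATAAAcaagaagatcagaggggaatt
Pou1f1: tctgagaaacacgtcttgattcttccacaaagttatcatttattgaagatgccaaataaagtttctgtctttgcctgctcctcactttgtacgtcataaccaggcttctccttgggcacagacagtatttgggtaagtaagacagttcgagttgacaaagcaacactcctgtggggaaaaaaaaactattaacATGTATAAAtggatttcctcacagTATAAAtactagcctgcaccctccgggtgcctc
Prl held ATGNATA at −148 and, on the other strand, at −47, with its TATA box at −24. Pou1f1 held ATGNATA at −57, where it overlaps a TATAAA at −54, and again at 13 bases past the start site. Tshb held no ATGNATA in the window and had TATAAA at −248, −27 and 12 bases past its start. ATGNATA was present in 7.39% of the 21263 windows. The window of Tbx19 held only E boxes, at −66 and 8 bases past the start site. None of the 5 genes with a window held GGATTA, the letters of a homeodomain site (6.42% of all windows), or GTCTAGAC, the SMAD palindrome (0.226%).

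The libraries differed in how many peaks were called. Vehicle library 2 had 178358 peaks, against 83344 in vehicle library 1, 85112 in activin library 1 and 70692 in activin library 2. The surplus was among weak peaks: the numbers with a −log10 q of at least 5 were 12377, 12760, 19819 and 15807 in the order vehicle 1, vehicle 2, activin 1, activin 2, which is the order used throughout. Total reads ran from 275983526 to 375610146, and the enrichment of reads at start sites, from 2.48 to 3.12, was lower in both vehicle libraries than in both activin libraries. Between 6.93% and 11.1% of the high-quality reads lay in peaks. Of 9 gonadotrope genes, 8 (88.9%) had a start-site peak in all 4 libraries, and Fshb had none. That list was chosen with earlier results of these data known, so the count does not test the cell label. Of all 20768 coding genes, 54.0% had such a peak in every library.

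The start sites of the 6 genes lacked recurrent peaks. A start-site peak is one centred within 1 kb of a start site given by the authors' annotation or by RefSeq. No gene among the 6 had one in all 4 libraries, while 54.0% of the 20768 protein-coding genes did. Prl, Tshb and Pou1f1 had one in no library, the state of 28.5% of coding genes. Tbx19 had one in 1 library, Pomc in both vehicle libraries, and Gh in 3 libraries but not in one place.

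**Figure D1:**
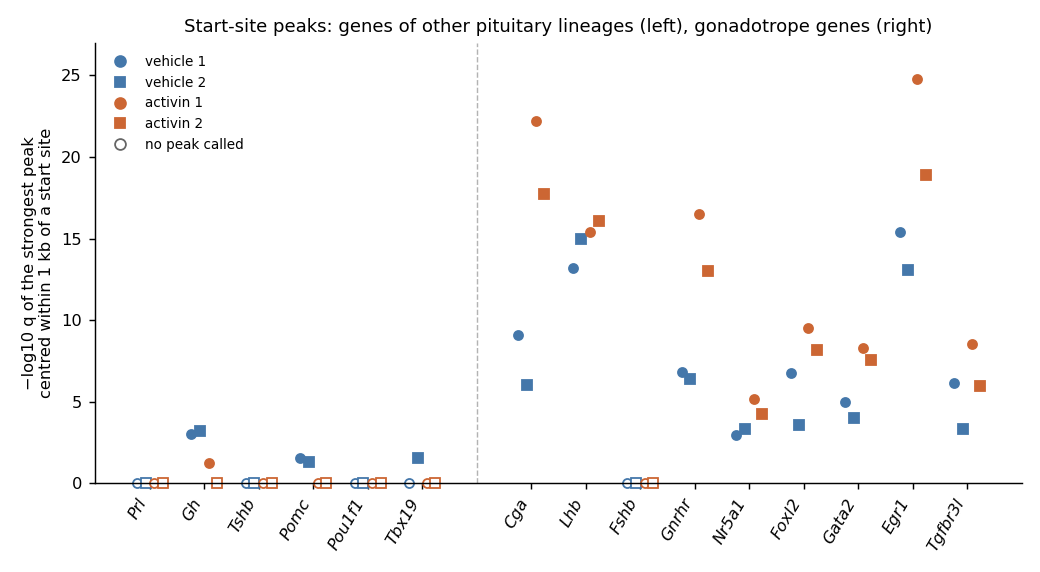
The −log10 q of the strongest called peak centred within 1 kb of a start site, for each gene (x axis) and library (blue vehicle, orange activin; circles library 1, squares library 2; open symbols on the zero line, no peak called). The highest value among the 6 genes on the left is 3.20, for Gh in vehicle library 2, and 8 of the 9 gonadotrope genes on the right have a peak in every library.

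Prl had neither a start-site peak nor any peak within 50 kb. Only 4.75% of 20214 coding genes with a complete count had no peak within 50 kb in any library. The closest peak upstream of Prl lay at 123.5 kb in each of the 4 libraries, next to the predicted gene Gm11355, with −log10 q of 1.72, 1.64, 3.51 and 4.59. Downstream, the closest peak lay at 926.1 kb in vehicle library 1, 232.3 kb in vehicle library 2, 1070.4 kb in activin library 1 and 106.6 kb in activin library 2. The stretch without a peak around Prl was therefore 1049.3, 355.7, 1193.7 and 229.9 kb long. Its upstream edge was shared by all libraries, and its downstream edge was set by a peak of −log10 q between 1.32 and 1.72 that differed from library to library.

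The mouse prolactin gene lies in a cluster of prolactin-family genes, most of which are expressed in the placenta and decidua. Of the 21 family members on chromosome 13 whose symbol is Prl followed by a digit, a list chosen after the values were seen, 0 had a start-site peak in any library. The neighbour closest to Prl, Prl3d1, has its start site 36.6 kb away. On chromosome 13, 54.9% of 794 coding genes had a start-site peak in all 4 libraries. Over the whole genome, 28.5% of coding genes had a start-site peak in no library.

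Gh had 15 peaks within 50 kb, 2, 9, 3 and 1 by library. The authors' start site of Gh is at chr11:106301865 and the 5′ end in RefSeq at 106303703, on the minus strand. In both vehicle libraries a peak lay between these sites. In vehicle library 1 it was chr11:106302809-106303048, with −log10 q of 3.03, 2.39-fold over background and 131 high-quality reads. In vehicle library 2 it was chr11:106302784-106302912, with −log10 q of 3.20 and 122 reads. It was the strongest peak pair at any start site of the 6 genes, and it ranked 18361st of 83344 in the list of vehicle library 1.

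Activin library 1 had no peak there. Its start-site peak was chr11:106300856-106301563, on exon 3 of 5 on the other side of the authors' start site, with −log10 q of 1.28 and 223 reads. Activin library 2 had neither. Another place, chr11:106297770-106298334, at 3.8 kb downstream, had a peak in vehicle library 2 (−log10 q 2.02) and activin library 1 (1.45). The remaining peaks of the Gh window were at its downstream edge or in vehicle library 2 alone. A region at 48.0 kb had weak peaks in all 4 libraries (−log10 q 2.00, 1.61, 1.56 and 1.07). They lay 1258 to 1425 bases upstream of the authors' start site of Ftsj3. The annotation called the peak of vehicle library 2 a promoter of Ftsj3 and the others a transcript end of it. The Gh window holds the start sites of 6 other genes, and none of them had a peak in all 4 libraries; Cd79b, a B-cell receptor component 10.8 kb upstream, Tcam1, Smarcd2 and Psmc5 had none, and Ftsj3 and Scn4a had one in vehicle library 2.

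Tshb had 22 peaks within 50 kb, evenly spread over the libraries at 5, 6, 6 and 5. The authors' annotation assigned 0 of them to Tshb. The start site used, chr3:102782714 on the minus strand, is not the 5′ end of the RefSeq gene, which lies upstream at 102789082. Within 50 kb upstream of the start site used and in the gene itself there was no peak at all, so none lay at that 5′ end either. The nearest, at 23.9 kb downstream, was called in vehicle library 2 alone at a promoter of Tspan2 (−log10 q 1.64). The other peaks lay within Tspan2, a tetraspanin gene, or at its other promoter.

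Although the Tshb window held no peak near Tshb, it held the most recurrent regions of the 6 windows: 4 of its 7 regions had a peak in all 4 libraries. Regions here are peaks of any library merged where they overlap. The region nearest to Tshb was chr3:102751930-102752696, in intron 2 of 7 of Tspan2, 30.4 kb away, with −log10 q of 7.43, 4.56, 17.3 and 10.9. The Tspan2 promoter region, chr3:102734347-102735911, 47.6 kb away, had 6.03, 5.74, 11.9 and 11.6. Between them, in intron 1, chr3:102744087-102745058 at 38.1 kb had 1.38, 3.87, 6.17 and 5.07, and chr3:102741136-102742472 at 40.9 kb had 1.78, 1.32, 2.27 and 1.85. These −log10 q values rank peaks within a library and are not a measure of accessibility between libraries.

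Pomc had 25 peaks within 50 kb, 7, 13, 4 and 1 by library, of which 23 were annotated to Pomc. At its start site the peak of vehicle library 1 was chr12:3954905-3955185, with −log10 q of 1.58, 2.52-fold over background and 73 reads. In vehicle library 2 it was chr12:3954854-3954997, with −log10 q of 1.31, 2.26-fold and 49 reads. Both contain the start site, and they share 93 bases. They were weak in their lists, at ranks 43333 of 83344 and 123799 of 178358, and neither activin library had a peak within 1 kb. A start-site peak in both vehicle libraries and neither activin library was seen for 1.79% of coding genes, and the reverse for 0.515%. The files give read numbers for called peaks, so read density at the Pomc promoter was not compared between vehicle and activin.

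The only Pomc region in all 4 libraries was chr12:3981222-3982280, 26.8 kb downstream of the start site, on exon 10 of 23 of the neighbouring gene Efr3b and annotated to Pomc as the nearest start. It was strong in every library, with −log10 q of 9.01, 8.10, 18.5 and 11.7, fold enrichment of 3.41, 3.10, 4.15 and 3.74, and 377, 379, 674 and 522 reads. It held 4 of the 5 peaks that reached a −log10 q of 5 among the 58 annotated to the 6 genes. The remaining one, chr12:3930381-3930961 at 24.3 kb upstream of Pomc, had 5.30 in vehicle library 2 and 1.37 in activin library 1, from 69 and 36 reads, and no peak in the other two libraries.

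The rest of the Pomc window was not recurrent: 15 of its 19 regions had a peak in 1 library, 9 of these in vehicle library 2. A region at 12.5 kb upstream, chr12:3942167-3942651, had peaks in both vehicle libraries (1.56 and 1.57). The coding exon 3 of 3 of Pomc, 5.3 kb downstream of the start, had a peak in vehicle library 1 (2.05).

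**Figure D2:**
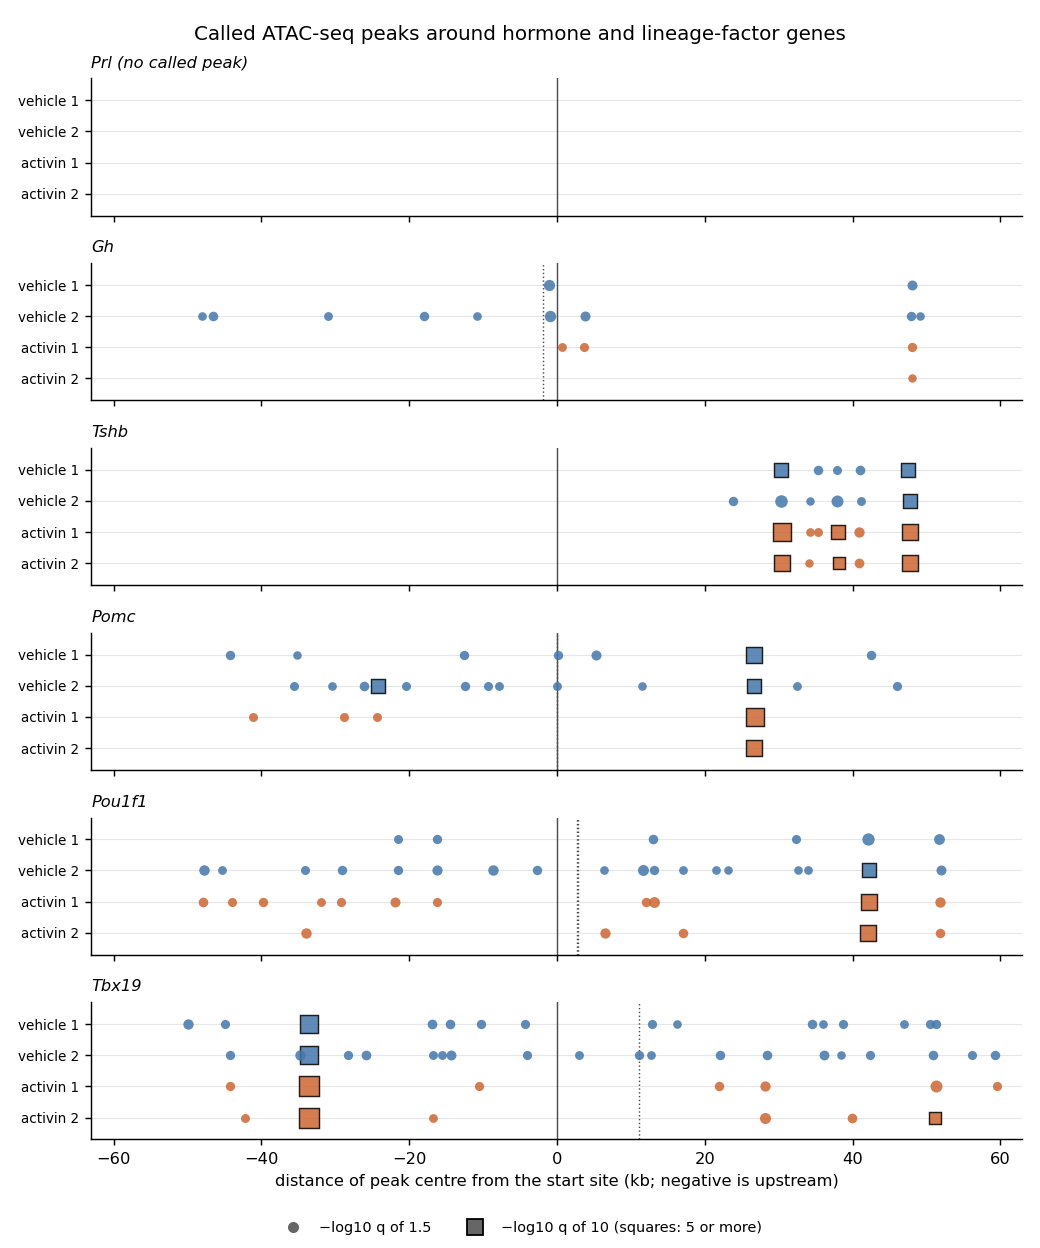
Each symbol is a called peak, at the distance of its centre from the gene's start site (x axis, kb, read in the direction of transcription) in 1 of the 4 libraries (rows; blue vehicle, orange activin); symbols grow with −log10 q, and outlined squares are peaks of at least 5. The solid line is the start site used as zero, the authors' site for Gh and a RefSeq site for the others, and dotted lines are further start sites of the gene; Prl has no peak, and all 22 squares lie 24.3 kb or more from a start site.

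Pou1f1 had 40 peaks within 50 kb, 6, 18, 11 and 5 by library, and 24 were annotated to it. It has RefSeq start sites at chr16:65520512 and 65523309, and no peak was centred within 1 kb of either. The peak closest to a start was 2.8 kb upstream, in vehicle library 2 alone (−log10 q 1.63). In intron 1 of 4, 3.6 kb downstream, vehicle library 2 (1.19) and activin library 2 (2.26) had a peak.

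Pou1f1 is known to be controlled by upstream enhancers in the pituitary, whose positions were not compared with the peaks here. Upstream of the gene 2 regions had a peak in 3 libraries, and both lacked it in activin library 2. They were chr16:65504074-65504490 at 16.2 kb (1.58, 2.14 and 1.46 in the other libraries) and chr16:65498265-65499494 at 21.6 kb (1.36, 1.56 and 2.03). Another such region, chr16:65533449-65533773 in intron 4 of 4, had 1.75, 1.6 and 2.74. No peak annotated to Pou1f1 reached a −log10 q of 3.

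In all 4 libraries the Pou1f1 window held peaks in 2 regions. One was the promoter of Chmp2b, a gene of the endosomal sorting machinery, at chr16:65562330-65563230 and 39.5 kb from Pou1f1, with −log10 q of 4.25, 6.14, 9.90 and 9.25. The other was an intergenic region on the far side of Chmp2b, chr16:65571638-65573159 at 49.1 kb, with 2.67, 2.00, 2.31 and 1.68.

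Tbx19 had the most peaks, 48, with 15, 20, 7 and 6 by library, but 6 were annotated to it. Its RefSeq start site, at chr1:165160773 on the minus strand, had no peak within 1 kb in any library. The authors' start site, at 165149694 and inside the RefSeq gene, had a peak in vehicle library 2, chr1:165149571-165149735, with −log10 q of 1.54, 2.03-fold over background and 75 reads. Other regions near these sites had peaks in vehicle libraries: chr1:165164550-165165191 at 4.1 kb upstream (1.49 and 1.47) and chr1:165147784-165148259 at 1.7 kb downstream of the authors' site (1.48 and 1.23).

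The strongest region in any of the 6 windows was the promoter of Sft2d2, a vesicle transport gene, at chr1:165193871-165194815 and 33.6 kb upstream of Tbx19, with −log10 q of 20.7, 20.1, 29.6 and 28.4 and 711, 716, 1172 and 894 reads. The Tbx19 window held 1 other region with a peak in every library, the intergenic chr1:165109262-165110387 at 39.9 kb downstream, with 1.59, 1.73, 3.84 and 5.01. Of the 28 regions of the window, 5 had a peak in both vehicle libraries and neither activin library, and 15 in 1 library.

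Over the 6 windows, 85 regions held the 150 peaks. A peak in all 4 libraries was found in 10 of them (11.8%), against 11.7% of 255101 regions in the series. A peak in both vehicle libraries alone was found in 9 (10.6%; 4.86% in the series), and in both activin libraries alone in 0 (1.35%). A single library accounted for 47 regions, 30 of them vehicle library 2. The share of regions in all 4 libraries was thus that of the series, but those regions lay far from the 6 start sites. The surplus of vehicle pairs was not tested, and it includes the library with the most peaks.

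None of the 6 genes had a region with a peak in all 4 libraries within 25 kb, while 73.0% of coding genes did. The nearest lay at 26.8 kb for Pomc, 30.4 kb for Tshb, 33.6 kb for Tbx19, 39.5 kb for Pou1f1, 48.0 kb for Gh and 123 kb for Prl. The median over the 6 genes was 36.5 kb. Over all coding genes it was 0.492 kb, with quartiles of 0.123 and 29.5 kb. The share of coding genes with a nearer recurrent region ran from 73.9% for Pomc to 90.1% for Prl, so each of the 6 lay in the far part of the distribution, with many other genes beside it. The 9 gonadotrope genes had a median of 0.192 kb, and Fshb, the farthest of them, had such a region at 2.45 kb.

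**Figure D3:**
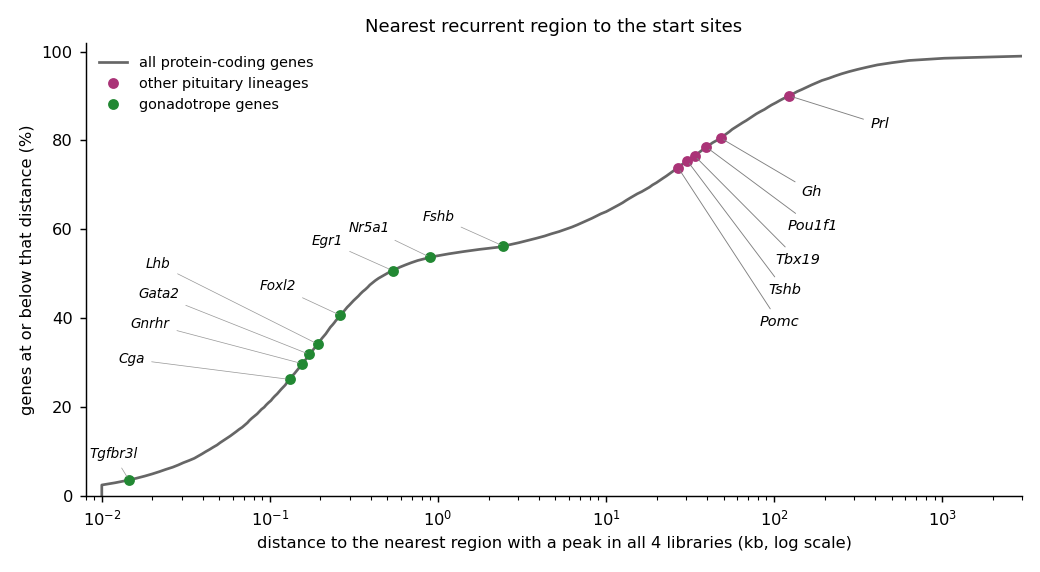
The grey curve gives the percentage of 20768 protein-coding genes (y axis) whose nearest region with a peak in all 4 libraries lies within a given distance of a start site (x axis, kb, log scale); distances under 0.01 kb are drawn at 0.01. Purple points are the 6 genes of other lineages, from 26.8 kb (Pomc) to 123 kb (Prl), and green points are the 9 gonadotrope genes, up to 2.45 kb (Fshb).

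The number of peaks around the genes told less. Over 20214 coding genes the median number of peaks within 50 kb, summed over the libraries, was 26, with quartiles of 14 and 36. The share of coding genes with fewer peaks was 25.7% for Gh, 39.2% for Tshb, 45.6% for Pomc, 82.1% for Pou1f1 and 93.5% for Tbx19. The 150 peaks had a median −log10 q of 1.61, equal to that of all peaks. Of them 69.3% were under 2 (66.0% in the series), and 14.7% were at 5 or more (14.6%).

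Read depth also differed between the chromosomes of the 6 genes. High-quality reads per Mb, relative to the mean over autosomes, were 1.41 to 1.43 on chromosome 11 (Gh), 1.25 to 1.28 on chromosome 16 (Pou1f1) and 1.1 on chromosome 1 (Tbx19). They were 0.659 to 0.669 on chromosome 12 (Pomc), 0.648 to 0.66 on chromosome 13 (Prl) and 0.586 to 0.614 on chromosome 3 (Tshb). On these 6 chromosomes the share of coding genes with a start-site peak in all 4 libraries ran from 51.3% (chromosome 3) to 60.3% (chromosome 12). By this measure the shares of chromosomes with low and high depth overlapped. The share with a region in all 4 libraries within 25 kb did not overlap. It was 66.1%, 69.6% and 73.7% on chromosomes 3, 13 and 12, and 77.0%, 77.9% and 81.4% on chromosomes 1, 16 and 11. The part of this depth in the number of peaks per gene or in these shares was not tested.

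Base composition moved with start-site peaks across the genome. The 21263 RefSeq promoter windows were split into 5 groups of similar size by GC content. The lowest group (12.3% to 46.3%) had a start-site peak in all 4 libraries in 7.84% of cases and in no library in 72.9%. In the highest group (66.7% to 89.3%) the shares were 84.5% and 6.65%. Tshb, at 32.0% GC with 2 CpG, Prl, at 38.0% with 1 CpG, and Pou1f1, at 41.7% and 41.3% for its start sites, were in the lowest group. Tbx19, at 47.0%, was in the next group, where 30.1% had a start-site peak in every library. Pomc, at 59.0% with 18 CpG, was in the middle group, where 55.3% had a start-site peak in every library and 25.8% in none.

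For Prl, Tshb and Pou1f1 the lack of a start-site peak was thus the state of most promoters of their GC content. Among the gonadotrope hormone and receptor genes, Cga, at 41.3%, and Gnrhr, at 43.3%, were in the same lowest group and had a peak in all 4 libraries. Fshb, at 44.0%, was there too and had a peak in none. Lhb, at 56.7%, was in the middle group and had a peak in all 4 libraries. Foxl2, at 71.3%, Gata2, at 69.3% and 73.7%, and Tgfbr3l, at 60.7%, also had one in all 4. Foxl2 and Gata2 were in the highest group, where 84.5% had one in every library. Tgfbr3l was in the group below it, where 76.0% did. The part of GC content in the lack of start-site peaks at the 6 genes was not tested.

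**Figure D4:**
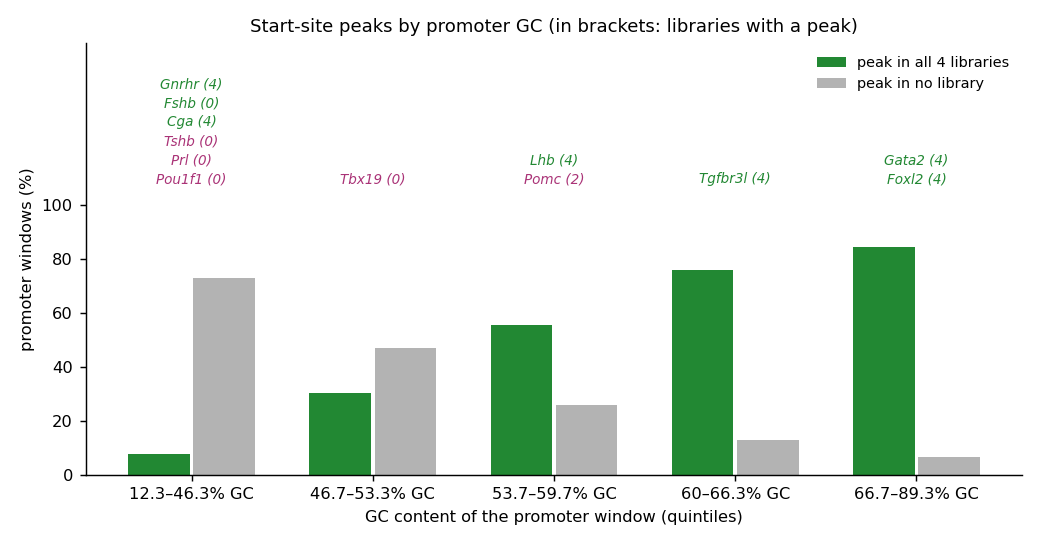
Bars give the percentage of RefSeq promoter windows (y axis) with a start-site peak in all 4 libraries (green) and in no library (grey), for 5 groups of windows by GC content (x axis). Gene names stand above their group, purple for the genes of other lineages and green for gonadotrope genes, with the number of libraries with a peak at that RefSeq start site in brackets; Cga and Gnrhr have 4 in the group where 7.84% of windows do.

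The chromatin around genes that act in the same lineages was mixed. Among 19 factors of pituitary development, 18 had a start site in the annotation and 9 of these had a start-site peak in all 4 libraries, among them Foxo1, Insm1, Isl1, Lhx3, Lhx4, Neurod1 and Six6. Isl1, which marks thyrotropes and gonadotropes, had −log10 q of 13.7, 10.5, 22.0 and 11.6. Neurod1, which acts with TBX19 on the Pomc promoter, had weak peaks of 2.65, 3.40, 2.36 and 2.24. The 6 without a start-site peak in any library were Hesx1, Neurod4, Rxrg, Sox2, Zbtb20 and the melanotrope factor Pax7.

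The 19 receptor and hormone-processing genes listed act in these lineages, but the list was not limited to genes particular to them. A start-site peak was present in every library for 12 of the 19 and absent from every library for 6. Ghrhr, the receptor that drives Gh in somatotropes, and Trhr, which drives Tshb in thyrotropes, had none. Dio2, Esr1 and Sstr5 had none either. Ghsr, Sstr2 and Thrb had a peak in every library, for Ghsr with −log10 q of 2.94, 2.21, 3.29 and 3.23. Drd2, the dopamine receptor that restrains lactotropes, had a peak in all, with −log10 q of 11.2, 8.84, 18.8 and 14.2. The corticotrope receptor Crhr1 had 1.95, 1.56, 5.38 and 5.00, and Avpr1b had a weak peak in 3 libraries. Pcsk1, the convertase that releases ACTH from proopiomelanocortin, had none, while Pcsk2, which acts in melanotropes, had 2.15, 4.22, 3.73 and 2.80. The shares found in all 4 libraries, 9 of 18 factors and 12 of 19 receptor and processing genes (63.2%), lie on either side of the 54.0% of all coding genes. No library had a start-site peak for 6 of 18 factors and 6 of 19 receptor and processing genes, against 28.5% of all coding genes.

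Activin and vehicle were compared by the number of peaks and by read density. Within 50 kb of the 6 genes, vehicle library 1 had 35 peaks and vehicle library 2 had 66, with a mean of 50.5 ± 21.9 (SD, n = 2). Activin library 1 had 31 and activin library 2 had 18, with a mean of 24.5 ± 9.19 (SD, n = 2). Both activin libraries had fewer peaks than both vehicle libraries, a difference of −26.0 in a two-sided exact permutation test with p = 0.33, the smallest that 2 against 2 libraries allow. With the same number of peaks taken from each list, the strongest 70692, the means were 29.5 ± 3.54 and 22.5 ± 6.36 (SD, n = 2 each), a difference of −7.0 (two-sided exact permutation p = 0.667), and the groups did not separate. At −log10 q of 2 or more the difference was −1.0. Counting those of −log10 q 5 or more, it turned in sign, with 4 and 5 peaks for vehicle against 6 and 7 for activin. The whole lists had the same order at that threshold, with 12377 and 12760 peaks for vehicle against 19819 and 15807 for activin. Without the threshold they held 83344 and 178358 against 85112 and 70692. Without vehicle library 2, which had the most peaks over the whole genome, the difference near the 6 genes was −10.5.

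Read density could be compared at 6 regions of the windows, where each library had 1 peak and the common part was at least 50% of the merged region. Density here is the number of high-quality reads divided by the peak's length in kb and by the library's reads in units of 1000000. None of the 6 passed an adjusted p of 0.05 in limma, and of all 13871 regions tested 0.00% did. Without adjustment, 1322 regions (9.53%) were under 0.05, 502 higher and 820 lower with activin, and none of the 6 was among them. The median log2 change of the 6 was −0.01, and that of all regions was −0.005.

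The region 26.8 kb downstream of Pomc had vehicle densities of 2.65 and 2.82 and activin densities of 3.05 and 3.37. The means were 2.74 ± 0.116 and 3.21 ± 0.231 (SD, n = 2 each). After centring each library on its median over the tested regions, the values of the groups overlapped, and the log2 change was −0.05 ± 0.13 (SE, limma adjusted p = 0.933). The sign of this change depended on the scaling, since scaling to all reads shifted the log2 change of every region by about 0.27.

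The largest change was at the Tspan2 promoter, 47.6 kb from Tshb, where vehicle gave densities of 1.57 and 1.68 and activin gave 2.38 and 2.42. Its log2 change was 0.29 ± 0.15 (SE, limma adjusted p = 0.569), and −0.08 without division by peak length. It ran from 0.15 to 0.42 with 1 library left out. The Chmp2b promoter near Pou1f1 gave 1.73 and 1.66 for vehicle and 2.27 and 2.5 for activin, changing by 0.22 ± 0.14 in log2 (SE, adjusted p = 0.648 in limma), from 0.11 to 0.32 with 1 library left out and 0.06 without division by length. At both, the activin values lay above the vehicle values after centring as well, which was so for 20.9% of all tested regions.

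The activin values lay below the vehicle values after centring at the Sft2d2 promoter near Tbx19, where log2 changed by −0.10 ± 0.09 (SE, adjusted p = 0.766 in limma). They did so too at the region 49.1 kb from Pou1f1, with −0.24 ± 0.19 (adjusted p = 0.694), from −0.36 to −0.12 with 1 library left out. That order was found at 20.5% of all tested regions. The Tspan2 intron region, 30.4 kb from Tshb, had overlapping values after centring and a log2 change of 0.03 ± 0.13 (adjusted p = 0.956).

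**Figure D5:**
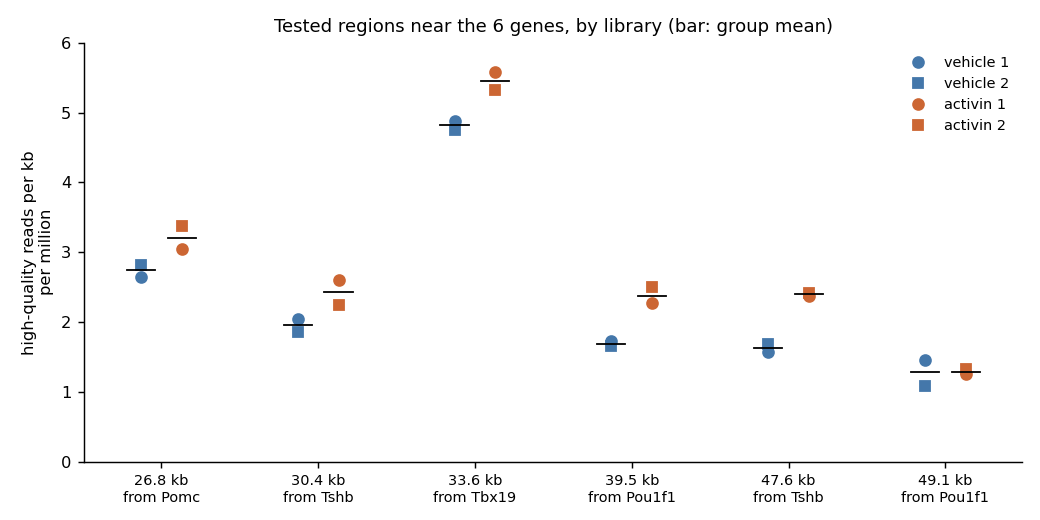
High-quality reads per kb of peak, per 1000000 reads of the library (y axis), in the 6 regions near the 6 genes that could be tested (x axis, by distance from the gene), before centring; blue is vehicle and orange activin, circles library 1 and squares library 2, and black bars are group means. The activin points lie above the vehicle points at 5 regions and between them at the region 49.1 kb from Pou1f1, before the shift of 0.27 common to all regions is taken out.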

How the data were processed

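Cells of the line titled LbT2b (LβT2 in the series title) given vehicle or activin A were profiled by ATAC-seq in 4 libraries, grouped by the sample titles. The submitters' processing notes name Bowtie2, MACS2, HOMER and the builds GRCm38 and mm10, with no versions, settings or statement of each tool's role; these and the read filters are not given in the sources used here. The authors deposited, for each library alone, a list of broad peaks with a score, a fold enrichment (a ratio over the caller's background) and −log10 p and q values. The authors' scores, folds and −log10 q served to describe and rank peaks inside 1 list and as thresholds, past which peaks were counted in each library; the values themselves were not tested between lists. The authors' HOMER annotation, per the file headers, names a feature, a gene and the distance to a start site. A report of ataqv 1.3.1, per the file headers, gives library totals and the high-quality autosomal reads of each peak; these were taken as deposited. Reads outside called peaks were not used here.

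Start sites came from the authors' annotated distances and from RefSeq tables of GRCm38.p6, which matched 5 of the 6 genes in the promoter table. Peaks overlapping by at least 1 bp were merged into regions. A window of 50 kb and a start-site distance of 1 kb were used. Regions with exactly 1 peak per library and a common part of at least 50% were tested with limma 3.58.1 (R 4.3.3) on log2((reads + 1) per kb), centred on each library's median, with Benjamini-Hochberg adjustment over all 13871 regions. The fit was tested on simulated data. Counts of peaks per library were compared by an exact permutation test. Regions described were those at a start site, in all 4 libraries, at −log10 q of 5 or more, or nearest to a start site. Other regions, Avpr1b, Dio2, Esr1, Ghsr, Sstr2, Sstr5 and Thrb were named after their values were seen. Some genes of the lists are not reported here. Tables were handled with Python 3.11.15 and pandas 2.3.3. The members and gene lists were chosen with earlier results of these data known. Alternatives covered the pseudocount, scaling, length, replicate block, overlap, low-read filter, window, −log10 q minimum and left-out libraries.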

Additional observations from a re-analysis of the deposited data

How the results depend on the processing

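No gene of the 6 had a start-site peak in all libraries under any alternative run, except that without activin library 2 the count was 1, Gh, whose peaks lie in different places. The 10 regions with a peak in all libraries became 0 within 25 kb, 18 within 100 kb, 5 at −log10 q of at least 2 and 3 at 5, and 10 to 14 when 1 library was left out. The difference in peak number (−26.0) ranged from −41.5 to −10.5 when 1 library was left out, the last without vehicle library 2, and was 2.0 at −log10 q of at least 5. Taking the authors' start site where given, or that of the RefSeq promoter table where given, gave −25.5 and −25.0. These alternatives, chosen after seeing the data, left 10 and 9 regions with a peak in all libraries.

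The number of regions past an adjusted p of 0.05 in limma, 0, became 1 with a pseudocount of 10 reads, 39 without division by length and 605 when scaled to all reads, and 0 to 9 when 1 library was left out, where a lone library is assumed to vary like the other group. With the replicate block it was 4; same-numbered libraries had a correlation of deviations of −0.0252 and share only a number. None of the 6 regions remained when the common part had to be 80%. Log2 changes that turned sign were those of the Pomc region at 26.8 kb (0.23 scaled to all reads, 0.19 without length, 0.06 with all merged regions, and −0.18 to 0.08 with 1 library left out, above 0 without vehicle library 2, 0.08, and without activin library 1, 0.06), the Sft2d2 promoter (0.18, 0.01 and 0.06, scaled, merged and without length), the region 49.1 kb from Pou1f1 (0.03, scaled), the Tspan2 promoter (−0.08, without length) and the Tspan2 intron (−0.03 to 0.1 with 1 library left out, below 0 without activin library 1). The cause of these was not tested.

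Numbers of called peaks differed between libraries by more than their read totals did, and most peaks near the 6 genes were within 1 unit of the lowest −log10 q.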
